A study of Mus musculus with 5 samples.

Results

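Osteoclast-like cells are described here among immune cells sorted from mouse flank tumours and read by single-cell RNA sequencing. They were chosen by transcripts: a kept cell was a member when at least 4 of the 6 genes Acp5, Ctsk, Atp6v0d2, Ocstamp, Mmp9 and Slc9b2 had a unique molecular identifier (UMI, a count of 1 captured RNA molecule), when Acp5 and Ctsk together made up at least 0.2% of its UMIs, and when it held at most 3 UMIs of the collagen genes Col1a1 and Col3a1. The rule found 244 members among 57661 kept cells. The tumours grew in mouse flanks from Lewis Lung Carcinoma, a cell line of murine lung cancer, and the sort took CD45+ cells that excluded propidium iodide. In the JAG2KO group (2 libraries) the injected cancer cells carried a guide RNA against JAG2, a ligand of Notch receptors, and in the Scramble group (3 libraries) they carried a Scramble control. The guides were in the injected cancer cells. The labels do not give the mouse strain or age, or state whether each library came from 1 tumour, so p-values measure the spread between libraries, which may be technical. Jag2 had 1 UMI in the JAG2KO members and 0 in the Scramble members, so the targeted gene could not be checked in these cells.

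Osteoclasts are large multinucleate cells of the monocyte lineage that resorb bone. Macrophage colony-stimulating factor and RANKL, acting through Csf1r and RANK (Tnfrsf11a), induce the transcription factor Nfatc1, which with Mitf and PU.1 switches on the genes of fusion, acid secretion and matrix digestion. A vacuolar proton pump acidifies the sealed space beneath the cell, and the protease cathepsin K (Ctsk) then digests collagen there. Acp5, or tartrate-resistant acid phosphatase, is the classical stain for the cell. Cells of the monocyte lineage can express parts of this set of genes outside bone, so the name used here refers to transcripts only. A sort of single cells passes mononuclear cells, and the number of nuclei per cell was not measured.

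Promoter sequences were available for 3 of the 6 genes of the rule, and the pair below belongs to Ctsk and Acp5, the genes whose summed share set the threshold. Each runs over the 250 bases before the annotated gene start, 5′ to 3′ on the strand of the gene, from RefSeq on GRCm38.p6. Ctsk lies on chromosome 3 at chr3:95498960-95499209 on the plus strand, with capitals at GAGGAA, the core bound by PU.1, or its reverse TTCCTC. Acp5 lies on chromosome 9 at chr9:22130599-22130848 on the minus strand for 1 of its 3 annotated starts, with capitals at CACATGA, the reverse of the TCATGTG element of Mitf and its relatives, and at TTTCCA, the reverse of the NFAT core TGGAAA.
Ctsk: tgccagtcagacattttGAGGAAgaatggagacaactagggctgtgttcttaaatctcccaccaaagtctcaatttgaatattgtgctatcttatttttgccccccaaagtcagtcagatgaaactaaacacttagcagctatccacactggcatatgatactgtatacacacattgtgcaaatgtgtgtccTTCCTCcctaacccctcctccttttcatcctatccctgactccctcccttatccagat
Acp5: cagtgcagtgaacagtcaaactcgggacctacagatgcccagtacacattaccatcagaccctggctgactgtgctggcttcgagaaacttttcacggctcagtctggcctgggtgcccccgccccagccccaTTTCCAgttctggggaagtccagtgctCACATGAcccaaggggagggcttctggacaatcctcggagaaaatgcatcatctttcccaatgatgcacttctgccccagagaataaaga
In the Ctsk promoter the PU.1 core stood 233 to 228 bases before the gene start and its reverse 58 to 53 bases before it. In the Acp5 promoter the Mitf element stood 90 to 84 bases and the NFAT core 117 to 112 bases before the start. Both strands were searched for these motifs and for the AP-1 element TGANTCA, and no 2 of the marked matches overlap. The promoters shown are those that held a match. None of the motifs was found in the promoter of Slc9b2 or before the other annotated starts of Acp5. The AP-1 element was found in none of the promoters of these genes. Of 32851 promoters of the same length, 3.25% held the Mitf element, 6.75% the AP-1 element, 18.6% the NFAT core and 23.3% the PU.1 core. A match describes letters only, and binding was not measured.

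The members numbered 107 and 90 in the JAG2KO libraries and 21, 12 and 14 in the Scramble libraries. They held a median of 18119 and 8665 UMIs per cell in the JAG2KO libraries and 16688, 19263.5 and 20270.5 in the Scramble libraries. They were set against other macrophages, which are kept cells outside the rule with at least 3 UMIs of C1qa, C1qb and C1qc together and at most 3 collagen UMIs, and which numbered 8347 and 16068 in JAG2KO and 7795, 9234 and 6565 in Scramble. Other macrophages were shallower in every library, with medians of 9767 and 2436.5 UMIs in JAG2KO and 9198, 8603 and 9300 in Scramble. JAG2KO library 2 stood apart in depth, and 31 of its 90 members had fewer than 2000 UMIs. Mitochondrial UMIs had a median of 5.02 and 5.58% in JAG2KO members and 5.04, 3.56 and 4.87% in Scramble members, all above the medians of other macrophages in the same library. No barcode was a member in more than 1 library, although 17 to 54 kept barcodes were shared by each pair of libraries.

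The membership rule left a clear upper end and a continuous lower one. Of all kept cells, 146 had UMIs of all 6 rule genes and gave Acp5 and Ctsk a median of 1.65% of their UMIs. Cells with 5 of the genes numbered 59 and had a median of 0.517%, and cells with 4 numbered 108 and had a median of 0.157%, under the threshold. Just inside the rule, 33 members of JAG2KO library 2 had 4 rule genes and a median of 1493 UMIs. Just outside it, 105 cells of the same library met the share but had 3 rule genes, with a median of 1008 UMIs, whereas the other 4 libraries had 3, 1, 0 and 0 such cells. Members of that library with 5 or 6 rule genes had a median of 13500 UMIs. The part of depth in the count of rule genes was not tested. These values describe the selection and carry no test.

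Osteoclast-like cells made up a larger share of the sorted cells in both JAG2KO libraries than in any Scramble library. They formed 1.04 and 0.465% of kept cells in the JAG2KO libraries, against 0.221, 0.116 and 0.170% in the Scramble libraries. Exact 95% Clopper-Pearson intervals ran from 0.854 to 1.26% and from 0.374 to 0.572% in JAG2KO, and from 0.137 to 0.338%, 0.0601 to 0.203% and 0.0931 to 0.286% in Scramble, and cover counting error only. The mean share was 0.754 ± 0.407% in JAG2KO (SD, n = 2) and 0.169 ± 0.0524% in Scramble (SD, n = 3), a ratio of 4.45. A two-sided exact permutation test gave p = 0.1, the smallest value that the 10 possible splits allow, so this design cannot reach 0.05.

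Counted per 100 other macrophages, the members numbered 1.28 and 0.560 in the JAG2KO libraries and 0.269, 0.130 and 0.213 in the Scramble libraries, a ratio of 4.51 with the same exact p of 0.1. The groups did not overlap on this scale either. With every cell thinned to 2000 UMIs, and shallower cells left out, the rule found 74 and 40 members in JAG2KO and 18, 6 and 8 in Scramble, and the ratio of shares was 4.44. The size of the ratio rested on which JAG2KO library was used. Without JAG2KO library 1 it was 2.75, and without JAG2KO library 2 it was 6.16.

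**Figure D1:**
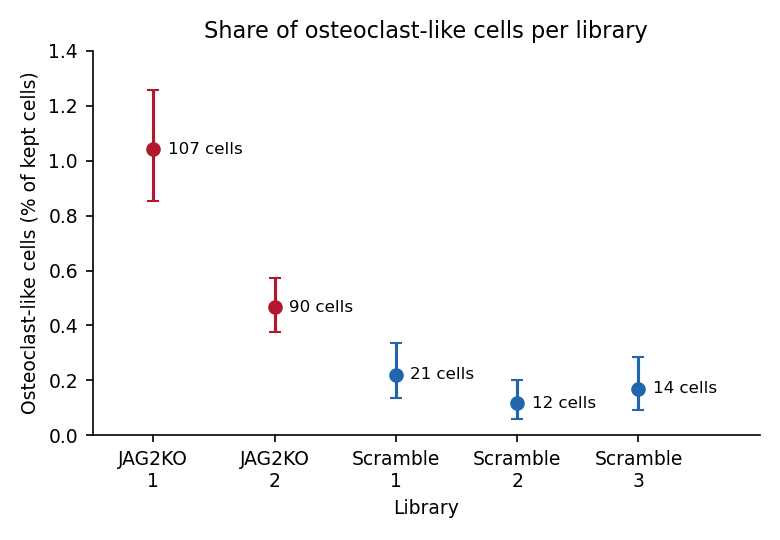
Share of osteoclast-like cells among kept cells (%) in each library, JAG2KO in red and Scramble in blue, with exact 95% intervals for counting error and the number of cells. JAG2KO library 1 stands at 1.04% and JAG2KO library 2 at 0.465%, and the 3 Scramble libraries lie between 0.116 and 0.221%.

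The label was checked against osteoclast genes that the rule did not read. Levels are in CPM, the UMIs of a gene per 1000000 UMIs summed over the cells of a class in a library. Dcstamp, the membrane protein required for the fusion of osteoclast precursors, stood at 146 and 139 CPM in JAG2KO members and 257, 201 and 139 CPM in Scramble members. Oscar, an activating receptor that binds collagen and co-stimulates osteoclast formation, stood at 68.2 and 72.5 CPM in JAG2KO members and 123, 49.1 and 145 CPM in Scramble members. Car2, the carbonic anhydrase that supplies protons to the pump, stood at 76.5 and 72.5 CPM in JAG2KO members and 45.5, 26.8 and 90.9 CPM in Scramble members. In other macrophages these 3 genes reached at most 12, 0.314 and 3.65 CPM in any library, so each was higher in the members in all 5 libraries. Some values rest on few cells. A single member held 86.7% of the Car2 UMIs in Scramble library 3 and 57.8% of the Dcstamp UMIs in Scramble library 2. The members of Scramble library 2 had 6 Car2 UMIs and 11 Oscar UMIs. Nfatc1, the transcription factor at the head of osteoclast differentiation, stood at 747 and 693 CPM in JAG2KO members and 691, 710.3 and 672 CPM in Scramble members, against 51.4 and 44.9 CPM in JAG2KO and 35.3, 38.3 and 40.6 CPM in Scramble other macrophages. Itgb3, the integrin chain of the sealing zone, had 16.1 and 17.8 CPM in JAG2KO members and 32.1, 0 and 45.4 CPM in Scramble members, so 1 Scramble library held none. Calcr, the calcitonin receptor of mature bone osteoclasts, had a UMI in 5 of the 244 members. Of these genes Calcr was close to 0 and Itgb3 was low. Dcstamp was the only one of 7 cell fusion genes with enough counts to be at least 2-fold higher in every library, and 2 were at least 2-fold lower, with a median of -0.76. Among them the tetraspanin Cd81 had a median of -2.97 and Cd9, another tetraspanin, 0.35. The cells were chosen by their transcripts, so levels against other macrophages are given as a description and carry no test.

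The genes of the rule varied widely from cell to cell. Acp5 had UMIs in 244 members, Ctsk in 236, Atp6v0d2 in 224, Mmp9 in 219, Slc9b2 in 214 and Ocstamp in 181. From the 10th to the 90th percentile of members, Acp5 ran from 2243 to 18118 CPM and Atp6v0d2, a subunit of the proton pump, from 114 to 1414 CPM. Mmp9, a gelatinase, ran from 11.9 to 10679 CPM over the same percentiles. Summed per library, Acp5 stood at 10222 and 9156 CPM in JAG2KO members and 9567, 5379 and 8981 CPM in Scramble members and Mmp9 at 3931 and 4762 CPM in JAG2KO members and 5497, 2779 and 5731 CPM in Scramble members. Ctsk stood at 5418 and 4388 CPM in JAG2KO members and 7243, 4306 and 4156 CPM in Scramble members. The ranges of the JAG2KO and Scramble libraries overlapped for all 6 rule genes. Over all genes tested, both JAG2KO libraries lay above all Scramble libraries for 7.66% and below them for 9.51%. Members of both groups had to pass the rule on these 6 genes, so nothing is drawn from the overlap.

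Over 3693 genes with at least 50 CPM in either class, 248 (6.72%) were at least 2-fold higher in members than in other macrophages in every library and 389 (10.5%) at least 2-fold lower. Beside rule genes, among the highest median differences on the log2 (CPM + 1) scale were those of Mt3, a metallothionein (6.91), Bdh2, a dehydrogenase (6.23), Oscar (5.87), Coq8a, a kinase-like protein of coenzyme Q synthesis (5.74), Rufy4 (5.54), Chchd10, a mitochondrial protein (5.28), and Dcstamp (5.19). Kbtbd11 (5.12), Cyp2s1 (5.02), Spry1 (4.66), Jdp2 (4.61), the kinase Src (4.6) and Nudt22 (4.22) followed. Mt3 had a UMI in 31 of 107 and 21 of 90 JAG2KO members. In Scramble it was found in 9 of 21, 1 of 12 and 9 of 14 members. Bdh2 stood at 363 and 397 CPM in JAG2KO members and 327, 371 and 309 CPM in Scramble members, against 6.64 and 4.65 CPM in JAG2KO and 3.35, 2.56 and 3.09 CPM in Scramble other macrophages, and the libraries of the 2 classes were far apart. Src, which organises the resorbing membrane, stood at 144 and 109 CPM in JAG2KO members and 115, 116 and 78.8 CPM in Scramble members, against 4.81 and 4.73 CPM in JAG2KO and 3.80, 3.66 and 2.57 CPM in Scramble other macrophages.

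**Figure D2:**
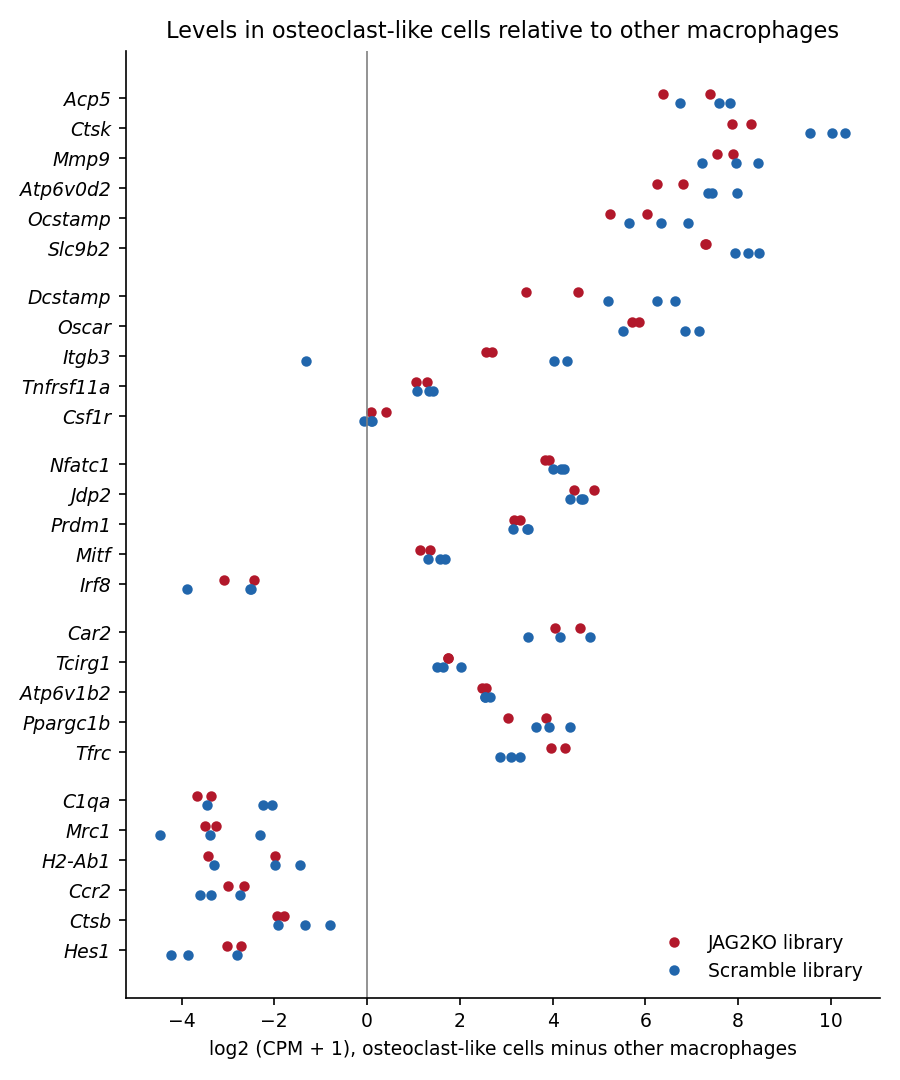
Difference in level between osteoclast-like cells and other macrophages of the same library on the log2 (CPM + 1) scale, 1 point per library, JAG2KO in red and Scramble in blue. Osteoclast genes outside the rule such as Dcstamp, Oscar, Nfatc1 and Car2 lie right of 0 in all 5 libraries, Csf1r lies near 0, and C1qa, Mrc1 and Hes1 lie left of it.

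Among receptors and signalling genes, 4 of 11 genes with enough counts were at least 2-fold higher in every library and none was lower, with a median difference of 0.10 against -0.03 over all genes. For this and every other list, the shares over all genes to set beside the counts are 6.72% higher and 10.5% lower. Tnfrsf11a, the receptor of RANKL, stood at 246 and 276 CPM in JAG2KO members and 299.9, 299 and 269.6 CPM in Scramble members, against 118 and 112 CPM in JAG2KO and 119, 111 and 126 CPM in Scramble other macrophages. Csf1r, the receptor of macrophage colony-stimulating factor, stood at 927 and 638 CPM in JAG2KO members and 760.5, 701 and 797 CPM in Scramble members, against 699 and 599 CPM in JAG2KO and 712, 739 and 743 CPM in Scramble other macrophages, so its levels overlapped between the classes. Itgav, the partner chain of Itgb3, stood at 322 and 303 CPM in JAG2KO members and 329, 295 and 306 CPM in Scramble members, against 129 and 111 CPM in JAG2KO and 116, 111 and 127 CPM in Scramble other macrophages. The adaptor Tyrobp differed little, with a median of 0.39, and Trem2, a receptor that signals through it, was lower in members, with a median of -1.15.

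Transcription factors of the lineage split by role in part. Of 9 factors that promote osteoclast formation, 4 were at least 2-fold higher in every library and none was lower, with a median of 0.99. Jdp2, an AP-1 family member required for osteoclast formation, stood at 1088 and 1235 CPM in JAG2KO members and 846, 898 and 881 CPM in Scramble members, against 48.4 and 40.7 CPM in JAG2KO and 33.7, 34.4 and 41.6 CPM in Scramble other macrophages. Prdm1, which represses anti-osteoclast factors, had a median difference of 3.30 and Mitf one of 1.35. Of 6 genes that restrain osteoclast formation, 4 were at least 2-fold lower in every library, with a median of -2.06. Irf8, a factor of monocyte and macrophage development, had a median difference of -2.53 and Rbpj, the DNA-binding partner of Notch, one of -1.68.

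The acid-secreting machinery was higher as a group. Of 21 proton pump and acid secretion genes, 13 were at least 2-fold higher in every library and none was lower, with a median of 1.5. Atp6v1b2, a catalytic-domain subunit of the pump, stood at 998 and 1086 CPM in JAG2KO members and 827, 898 and 960.2 CPM in Scramble members, against 179 and 184 CPM in JAG2KO and 140.3, 142 and 164 CPM in Scramble other macrophages. Tcirg1, the pump subunit found at the resorbing membrane, had a median difference of 1.74, Slc4a2, the anion exchanger that balances acid export, one of 2.37, and Snx10, a sorting nexin needed for resorption, one of 2.18. The isoform pairs of the pump went different ways. Atp6v0d2 is a rule gene and had a median of 7.36, whereas Atp6v0d1 had -0.44, and Atp6v0a1 had -2.18 beside 1.74 for Tcirg1, its osteoclast counterpart. Energy metabolism genes followed, with 9 of 13 at least 2-fold higher in every library and a median of 1.47. Ppargc1b, the coactivator of mitochondrial biogenesis in osteoclasts, had a median of 3.85, and Tfrc, the transferrin receptor that supplies iron to mitochondria, 3.29.

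Other matrix enzymes varied. Of 14 matrix and lysosomal proteases and inhibitors with enough counts, 5 were at least 2-fold lower in every library and none was higher, with a median of -1.79. Ctss, a cathepsin of antigen processing, stood at 575 and 474 CPM in JAG2KO members and 444, 728 and 642 CPM in Scramble members, against 2423 and 2561 CPM in JAG2KO and 2167, 2210.1 and 2093 CPM in Scramble other macrophages. Ctsb, a broad lysosomal protease, had a median of -1.80 and Lgmn, an asparaginyl endopeptidase, -2.34. Mmp14, a membrane-bound collagenase, had a median of 1.46.

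Macrophage identity genes were lower as groups. The other macrophages were gated on C1q UMIs, the C1q genes are in the first list below, and genes entered by reaching 50 CPM in either class, all of which favour lower calls. Of 14 resident and alternative macrophage genes, 13 were at least 2-fold lower in every library, with a median of -3.30, and all 7 monocyte genes with enough counts were, with a median of -3.0. Mrc1, the mannose receptor, stood at 111 and 58.5 CPM in JAG2KO members and 50.9, 103 and 242 CPM in Scramble members, against 1069 and 669.8 CPM in JAG2KO and 1146, 1077 and 1198 CPM in Scramble other macrophages. Of 15 chemokine genes 11 were at least 2-fold lower and of 6 MHC class II genes 5 were. The lowest medians were those of Cxcl9 (-5.05), Mgl2 (-4.89), Ccl12 (-4.80), Cxcl10 (-4.56) and Retnla (-4.34). Ccl9 was an exception among chemokines, at 1311 and 1007 CPM in JAG2KO members and 517, 670.1 and 842 CPM in Scramble members, against 1021 and 936 CPM in JAG2KO and 929, 874 and 923 CPM in Scramble other macrophages, and these ranges overlapped. Of 6 Notch pathway genes with enough counts, 2 were at least 2-fold lower in every library. Hes1, a direct Notch target, stood at 13.1 and 6.36 CPM in JAG2KO members and 5.36, 8.93 and 3.03 CPM in Scramble members, against 92.4 and 58.7 CPM in JAG2KO and 91.3, 68.1 and 74.5 CPM in Scramble other macrophages. Cd68, a lysosomal marker of macrophages, did not differ by 2-fold.

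**Figure D3:**
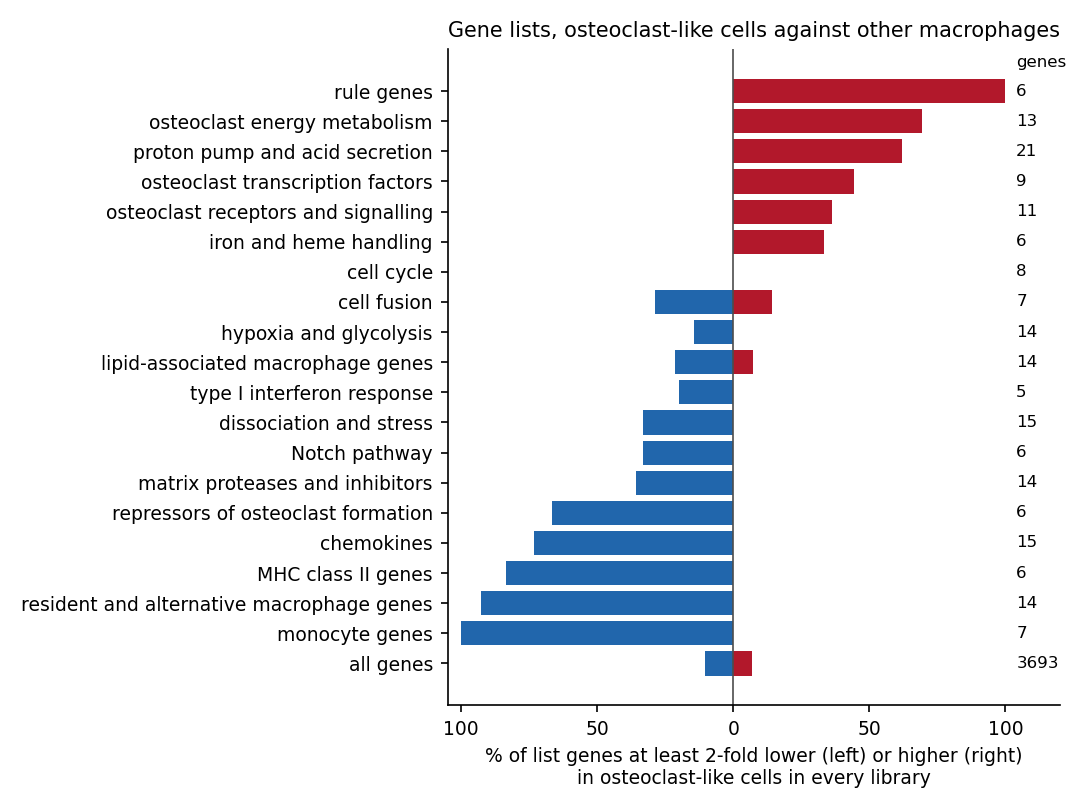
Share of the genes of each list (%) that were at least 2-fold higher (red, right) or lower (blue, left) in osteoclast-like cells than in other macrophages in every library, with the number of genes at or above 50 CPM. Energy metabolism (9 of 13) and the proton pump (13 of 21) lie on the higher side, and monocyte (7 of 7) and resident macrophage genes (13 of 14) on the lower side, beside 6.72 and 10.5% over all genes.

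C1q transcripts in the members were compared with those in cells gated on neutrophil or T cell genes. These gates left out the members but not other macrophages, so macrophages or mixed droplets may be among the gated cells. The members held C1qa at 347 and 285 CPM in JAG2KO members and 367, 867 and 921 CPM in Scramble members, against 3595 and 3627 CPM in JAG2KO and 4009, 4128 and 3814 CPM in Scramble other macrophages. Kept cells with at least 1% of their UMIs in the neutrophil genes S100a8 and S100a9 held C1qa at 880.3 and 1699 CPM in JAG2KO and 1411, 1339 and 823 CPM in Scramble. Cells with at least 3 UMIs of the T cell genes Cd3d, Cd3e, Cd3g and Trac held 1012 and 1112 CPM in JAG2KO and 1144, 1871 and 787 CPM in Scramble. These cells were shallower than members, with median depths of 1144 to 1921 UMIs and 3084 to 3664 UMIs. The members were below both of these levels in 4 of the 5 libraries and above both in Scramble library 3. Mmp9 was not specific to the members, since the neutrophil-gene cells held 687 and 306 CPM in JAG2KO and 538, 390.5 and 513 CPM in Scramble. Ctsk in those cells was at most 30.8 CPM.

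Among the 202 members of at least 5000 UMIs, 35 had 10 or more C1q UMIs, 88 had 3 to 9 and 79 had fewer. Those with 10 or more held Mmp9 at 3605 CPM, Fn1 at 1412 CPM and Ctsb at 2001 CPM. Those with 3 to 9 held 4496, 84.1 and 644 CPM of the same genes, and those with fewer than 3 held 4718, 58.55 and 541 CPM. Of the 35 cells 11 lay in the 8% of highest doublet scores, against 5 of 88 and 0 of 79. Removing the cells with the highest doublet scores took 15 and 0 members from JAG2KO and 1, 0 and 0 from Scramble, and left a ratio of shares of 4.11. The part of doublets in the members with C1q transcripts was not tested beyond these values.

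Markers of other lineages were low in the members. Neutrophil markers summed to 17.5 and 307 CPM in JAG2KO members and 66.9, 80.4 and 36.4 CPM in Scramble members, with 4 to 6 of 10 markers detected and Ly6g, Camp, Ltf and Ngp at 0 in every library. JAG2KO library 2 was the only one in which this sum was as high as in other macrophages, where it was 295 CPM. Fibroblast markers summed to at most 34.8 CPM, which the rule partly fixes, since Col1a1 and Col3a1 are among them. Tumour cell markers summed to at most 8.03 CPM in any library. Of the osteoblast markers, Bglap, Alpl, Sp7, Ibsp and Dmp1 were at 0 in the members of every library, and the 6 markers summed to at most 4.47 CPM.

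Dcstamp, Oscar and Car2 were higher in members with more of the rule genes, and other osteoclast genes were not all ordered in this way. Among members of at least 5000 UMIs, pooled over libraries, Dcstamp was at 12.8 CPM in the 19 cells with 4 rule genes, 50 CPM in the 40 with 5 and 204 CPM in the 143 with 6. Oscar was at 0, 13.2 and 108 CPM and Car2 at 6.42, 25 and 90.2 CPM in the same order. Nfatc1 differed less, at 584, 717 and 747 CPM. Tnfrsf11a was at 292, 232 and 271 CPM, Tcirg1 at 360, 310.4 and 471 CPM and Mmp14 at 398, 391 and 524 CPM, each lowest in the cells with 5 rule genes. Mki67, a gene of dividing cells, ran the other way, at 353, 305 and 66.2 CPM. The 3 sets share libraries and were split by detection, so these values carry no test.

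Some members carried transcripts of cell division. With at least 5 UMIs over 6 cell cycle genes taken as the mark, 16 of 107 and 12 of 49 members of at least 5000 UMIs were positive in JAG2KO, and 5 of 21, 3 of 11 and 3 of 14 in Scramble, 39 of 202 (19.3%) in all. Positive cells were deeper, with a median of 20659 UMIs against 16928. Mki67 stood at 105 and 114 CPM in JAG2KO members and 107, 523 and 112 CPM in Scramble members. The high value of Scramble library 2 came from 3 cells, of which 1 held 42.7% of the UMIs.

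**Figure D4:**
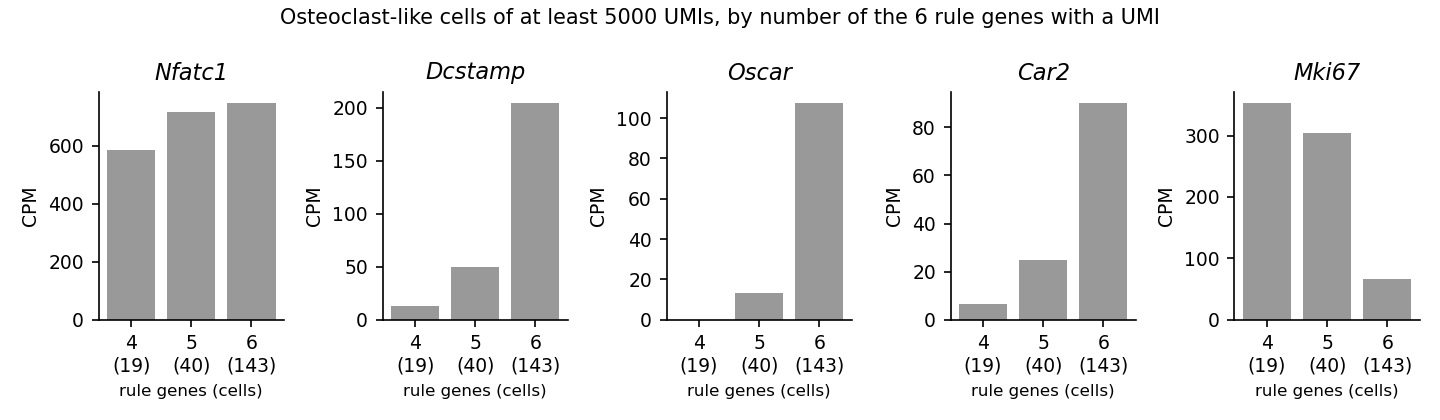
Level (CPM of summed UMIs) of 5 genes outside the rule in osteoclast-like cells of at least 5000 UMIs with 4, 5 or 6 of the rule genes, pooled over the 5 libraries, with the number of cells in brackets. Dcstamp runs from 12.8 to 204 CPM and Mki67 from 353 to 66.2 CPM, while Nfatc1 stays between 584 and 747 CPM.

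Within the members, JAG2KO was compared with Scramble on UMIs summed per library. Of 5393 genes tested by edgeR none passed an adjusted p of 0.05 (0% called), 268 (4.97%) had an unadjusted p under 0.05, and DESeq2 called 2. Both JAG2KO libraries lay above all Scramble libraries for 413 genes (7.66%) and below them for 513 (9.51%). The genes of the osteoclast state were not called. Nfatc1 differed by 0.09 ± 0.19 (log2, SE), Acp5 by 0.30 ± 0.23, Ctsk by -0.08 ± 0.24 and Tcirg1 by 0.16 ± 0.22. No gene among the 6 rule genes, 10 transcription factors or 22 proton pump genes tested was called. Members of both groups had to pass the rule on Acp5, Ctsk and the other rule genes. The differences of rule genes are therefore given as values only. All 10 transcription factors had positive estimates, with a median of 0.22 against -0.01 over all genes.

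The 2 genes that DESeq2 called were Apoe, the lipid carrier, and Tfrc. Apoe stood at 803 and 703 CPM in JAG2KO members and 1312, 2216 and 1987 CPM in Scramble members, so both JAG2KO libraries were below all Scramble libraries. It differed by -1.25 ± 0.22 (log2, SE), with an adjusted p of 0.13 in edgeR and 0.00215 in DESeq2. In Scramble library 2 a single cell held 43.5% of its UMIs. Cells with neutrophil genes held Apoe at 911 and 1736 CPM in JAG2KO and 2277, 2241 and 1320 CPM in Scramble, above the members in every library except Scramble library 3, so the members' Apoe cannot be told apart from free RNA. Tfrc stood at 563 and 492 CPM in JAG2KO members and 193, 210.0 and 282 CPM in Scramble members, so both JAG2KO libraries were above all Scramble libraries. It differed by 1.24 ± 0.23, with an adjusted p of 0.13 in edgeR and 0.00815 in DESeq2. In other macrophages Tfrc stood at 35.1 and 24.6 CPM in JAG2KO and 25.4, 23.4 and 27.9 CPM in Scramble, and the groups overlapped.

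Several inflammatory genes followed, none of them past the threshold. Il1b, which encodes interleukin-1 beta, stood at 59.9 and 95.4 CPM in JAG2KO members and 147, 402 and 279 CPM in Scramble members, with a difference of -1.80 ± 0.34 and an adjusted p of 0.132. A single cell held 69.1, 91.1 and 81.5% of its UMIs in the 3 Scramble libraries, so this difference rests on 1 cell per library. Ptgs2, the inducible cyclooxygenase, stood at 3.41 and 7.63 CPM in JAG2KO members and 34.8, 13.4 and 36.3 CPM in Scramble members. These values come from 7 and 6 UMIs in JAG2KO and 13, 3 and 12 in Scramble. In the Scramble libraries 1 cell held 61.5, 66.7 and 66.7% of the Ptgs2 UMIs. Cxcl10, an interferon-induced chemokine, stood at 30.2 and 33.1 CPM in JAG2KO members and 2.68, 0 and 3.03 CPM in Scramble members, with 1 cell holding 79.0 and 53.8% of the UMIs in the JAG2KO libraries. Rcan1, a feedback inhibitor of calcineurin and a target of NFAT, stood at 132 and 146 CPM in JAG2KO members and 42.8, 17.9 and 72.7 CPM in Scramble members, with a difference of 1.59 ± 0.33 and an adjusted p of 0.241. Phlda1, Klf2 and Fyb were also among the 5 smallest p-values in their direction over the genes named by the rule, with differences of 1.60, 1.19 and -1.14.

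Gene groups were compared in the same fit, and none had a called member. All 12 resident and alternative macrophage genes tested had negative estimates, with a median of -0.90 against -0.01 over all genes. C1qa differed by -1.13 ± 0.31 (adjusted p = 0.477), and in Scramble libraries 1 and 2 a single member held 62.0 and 84.0% of its UMIs. Of 13 lipid-associated macrophage genes, 10 had negative estimates, with a median of -0.81. Spp1, which encodes osteopontin, stood at 289 and 378 CPM in JAG2KO members and 841, 415 and 891 CPM in Scramble members, with a difference of -1.10 ± 0.30 and an adjusted p of 0.477. All 6 MHC class II genes had positive estimates, with a median of 0.50, as did 9 of 11 chemokines, with a median of 0.81. Over all genes tested, 2652 of 5393 estimates were positive. In other macrophages the median of 7 MHC class II genes was 1.04. Cells with neutrophil genes held H2-Ab1 at 555 and 1411 CPM in JAG2KO and 521, 592 and 365.5 CPM in Scramble. The members held 362 and 300 CPM in JAG2KO and 198, 134 and 442 CPM in Scramble. The part of free RNA in these estimates was not tested. Ccl9 differed by 0.81 ± 0.22 (adjusted p = 0.477). Dissociation and stress genes had 13 of 15 positive estimates, with a median of 0.31, and hypoxia and glycolysis genes 12 of 14, with a median of 0.23. The part of stress during dissociation in the other differences was not tested. All 7 Notch pathway genes had negative estimates with a median of -0.11, and Rbpj differed by -0.07 ± 0.23.

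The ligands that drive osteoclast formation were scarce in the libraries. Over all kept cells Tnfsf11, which encodes RANKL, stood at 1.27 and 1.86 CPM in JAG2KO and 0.511, 0.360 and 0.660 CPM in Scramble, from 135, 158, 46, 35 and 52 UMIs. Both JAG2KO libraries were above all Scramble libraries, and no test was run on these sums. Cells with T cell genes, a known source of RANKL, numbered 572 and 624 in JAG2KO and 132, 114 and 87 in Scramble, and their part in the sums was not tested. Csf1 stood at 28.9 and 17.0 CPM in JAG2KO and 25.9, 26.3 and 29.4 CPM in Scramble. Tnfrsf11b, the decoy receptor osteoprotegerin, had 19 and 3 UMIs in JAG2KO and 0, 2 and 6 in Scramble. The sort took CD45+ cells, so other sources of these ligands in the tumour were not measured.

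The JAG2KO difference in the members was then set against that in other macrophages of the same libraries. Of 13829 genes tested, edgeR's default fit called 64 (0.463%), with 34 (0.246%) higher and 30 (0.217%) lower in the members relative to other macrophages. That fit gave no weight to a gene's own spread between libraries, so its standard errors and p-values do not measure that spread. With a spread per gene, in a fit chosen after the data were seen, edgeR called 7 genes, and DESeq2 called 10. That spread per gene was still drawn toward the one shared by all genes. The shared part carried 11.3 degrees of freedom against 3 of the gene's own. Outside the rule, the genes called by all 3 fits were Lpl, Il1b and Ccl12. The rule genes Ctsk and Slc9b2 also passed all 3, but the members were chosen on them, so nothing is drawn from those calls. In other macrophages alone, 180 of 14645 genes (1.23%) rose and 206 (1.41%) fell in JAG2KO.

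Lpl, the lipoprotein lipase that releases fatty acids from lipoproteins, was high in the members of both groups. It stood at 413 and 478 CPM in JAG2KO members and 420.4, 465 and 678 CPM in Scramble members and at 161 and 112 CPM in JAG2KO and 30.2, 29.1 and 35.0 CPM in Scramble in other macrophages. It rose in JAG2KO other macrophages by 2.09 ± 0.15 (log2, SE; adjusted p = 0.00407) and differed by -0.20 ± 0.24 in the members (adjusted p = 0.999). The difference between the classes was -2.19 ± 0.21, with adjusted p of 1.25e-20 in the default fit, 0.00184 with a spread per gene and 8.3e-11 in DESeq2. No single member held more than 27.7% of its UMIs in any library. Cells with neutrophil or T cell genes held at most 47.2 CPM, far below the members.

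Ccl12, a monocyte-attracting chemokine, stood at 19.0 and 24.2 CPM in JAG2KO members and 16.1, 13.4 and 12.1 CPM in Scramble members, from 39 and 19 UMIs in JAG2KO and 6, 3 and 4 in Scramble, with 1 cell holding 59.0% of the UMIs of JAG2KO library 1. In other macrophages it stood at 150.4 and 155 CPM in JAG2KO and 481, 399 and 367 CPM in Scramble and fell in JAG2KO by 1.46 on the log2 scale. The difference between the classes was 2.16 ± 0.42, with adjusted p of 0.000177, 0.0439 and 0.0149 in the 3 fits. Cells with neutrophil genes held Ccl12 at 22.4 and 64.5 CPM in JAG2KO and 135, 177 and 129 CPM in Scramble. These levels were above the members in all libraries. The part of free RNA in the members' Ccl12 was not tested. Il1b differed by -1.61 ± 0.25 between the classes, with adjusted p of 6.48e-08, 0.0393 and 0.000138 in the 3 fits, and rests on the single cells given above.

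Spp1 fell in JAG2KO other macrophages by 2.41 on the log2 scale (adjusted p = 0.00472), where it stood at 680.2 and 602 CPM in JAG2KO and 4187, 2958 and 2963 CPM in Scramble. The members were lower by less, and the difference between the classes was 1.42 ± 0.23, with adjusted p of 3.52e-07 in the default fit, 0.208 with a spread per gene and 0.0509 in DESeq2. Free Spp1 RNA can reach any droplet. Cells with neutrophil genes held 950.4 and 855 CPM in JAG2KO and 2943, 1814 and 1603 CPM in Scramble, all above the members of the same library. Cells with T cell genes held 248 and 337 CPM in JAG2KO and 1444, 1224 and 623 CPM in Scramble, below the members in 3 of 5 libraries. The members' Spp1 and free RNA cannot be told apart at these levels. Tfrc differed by 1.13 ± 0.22 between the classes, with adjusted p of 0.000117, 0.0975 and 0.00301 in the same order of fits.

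For rule genes the comparison is tied to how the members were chosen, so their values are given and nothing is drawn from their calls. Ctsk in other macrophages stood at 16.5 and 17.8 CPM in JAG2KO and 4.68, 4.72 and 3.02 CPM in Scramble, and Slc9b2 at 1.80 and 1.34 CPM in JAG2KO and 0.768, 0.409 and 0.340 CPM in Scramble. In the same libraries 12.7 and 6.16% of JAG2KO other macrophages and 4.23, 4.93 and 3.34% of Scramble other macrophages had UMIs of at least 2 rule genes, and these cells held 56.5 and 62.6% of the Ctsk UMIs of other macrophages in JAG2KO and 44.5, 43.1 and 44.1% in Scramble. Both JAG2KO libraries were above all Scramble libraries on this share, while Scramble library 2 was the highest of its group here and the lowest in its share of members.

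**Figure D5:**
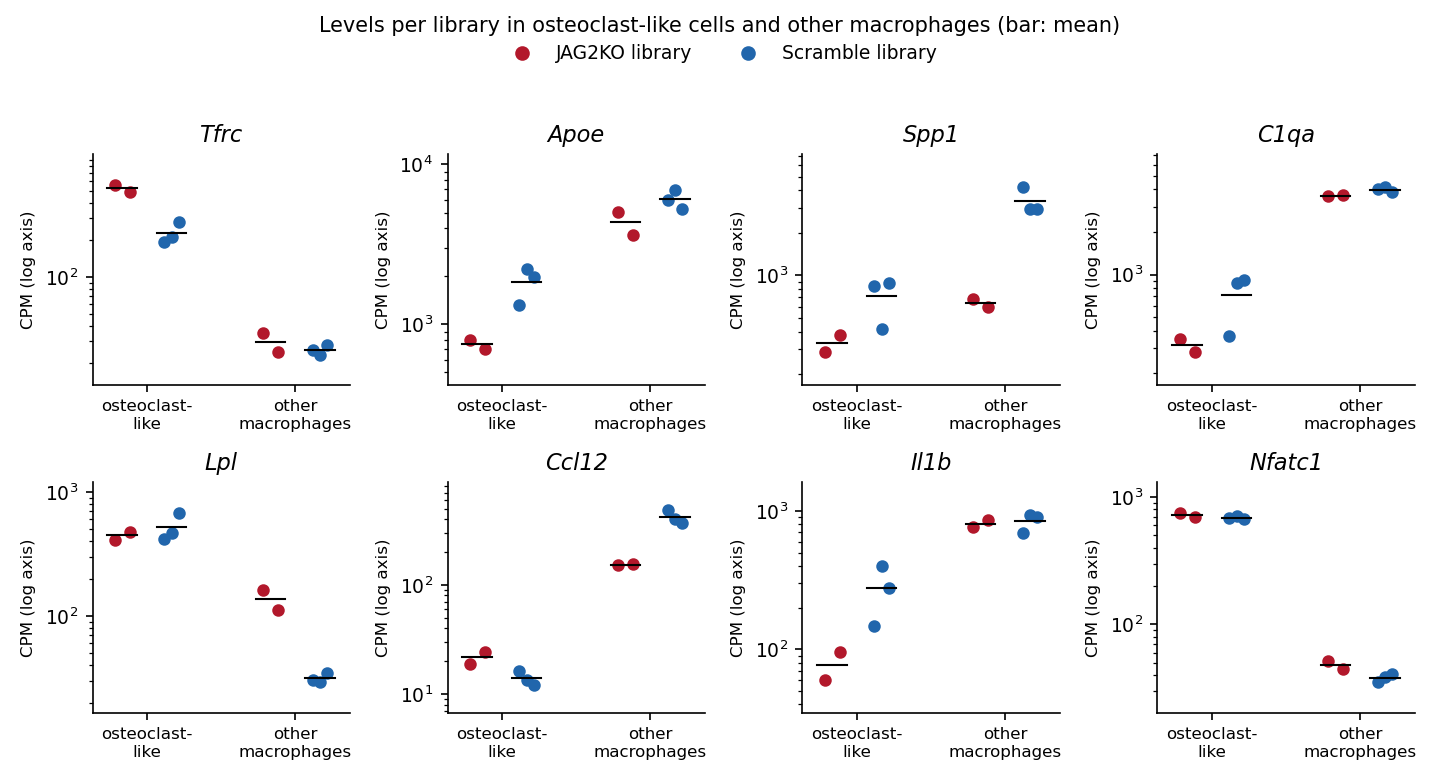
Level (CPM, log axis) of 8 genes in osteoclast-like cells and in other macrophages, 1 point per library, JAG2KO in red left of Scramble in blue, with a bar at the mean. Tfrc and Apoe separate the groups in osteoclast-like cells, Lpl separates them in other macrophages, where it is at 161 and 112 CPM in JAG2KO and at most 35.0 CPM in Scramble, and Nfatc1 lies between 672 and 747 CPM in osteoclast-like cells of both groups.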

How the data were processed

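Immune cells of mouse flank tumours were profiled by droplet RNA sequencing with a 3′ kit, per the labels' protocols. The deposited files hold UMI counts per gene and barcode for 32285 genes, made by the authors with cellranger 6.0.0 per the file headers. Seurat and the builds GRCm38 and mm10 are named in the submitters' processing notes. Aligner settings are not given in the sources used here. Total UMIs per library ran from 84788907 to 111680641, and the members' sums from 223846 to 2053492. The Clopper-Pearson intervals of shares cover counting error only. The standard errors of gene differences were derived from edgeR's F statistic, which uses a spread between libraries shared in part across genes. In the default interaction fit a gene's own spread carried no weight.

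Kept cells had 500 or more UMIs, 250 or more genes and no more than 10% of UMIs from mitochondrial genes. UMIs were summed per library for the members and for other macrophages, and were tested with edgeR 4.0.16 (quasi-likelihood, TMM, filtering of low counts) and Benjamini-Hochberg adjustment at 0.05. The interaction fit had library as a block. DESeq2 1.42.0, edgeR's bias-adjusted dispersion, other cell filters and each left-out library were alternatives. Shares were tested by exact two-sided permutation. Doublet scores came from Scrublet, and the top 8% was removed only as an alternative. The edgeR fits were run on simulated data with large changes and a spread common to all genes. Such data cannot show how the fits treat smaller changes or a spread that differs between genes. Levels are log2 (CPM + 1) of summed UMIs. Genes named are the called ones or the 5 smallest p-values each way with a mean of at least 10 CPM, the 20 largest level differences each way, up to 4 members per list and a fixed set of osteoclast genes. The members and the 21 lists were chosen with earlier results of these data known. Promoters are from RefSeq on GRCm38.p6. Some genes that meet these rules are not reported here.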

Additional observations from a re-analysis of the deposited data

Results flagged for a closer look

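For 18 genes the JAG2KO difference in osteoclast-like cells departed from that in other macrophages of the same libraries in edgeR's default interaction fit, and each is given as that departure in log2. Of these, Cxcl10, H2-M2, Lpl and Il1b were also called in the bias-adjusted fit, where the spread per gene was shared in part across genes. Positive values were found for Hdc (12.31), Slpi (4.08), Hspb1 (4.0), S100a8 (3.94), Cxcl10 (3.77), S100a9 (3.13), Steap4 (3.01), Plac8 (2.76), Ifitm1 (2.46) and Cxcl3 (2.42). In JAG2KO library 2, 1 cell per gene held 82.4% of the Hspb1 UMIs, 77.8% of the Cxcl3 UMIs, 66.7% of the Hdc UMIs, 63.2% of the Steap4 UMIs and 55.6% of the Plac8 UMIs of the members.

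S100a8, a neutrophil calcium-binding protein, stood at 10.2 and 154 CPM in JAG2KO members and 24.1, 22.3 and 9.09 CPM in Scramble members, and at 74.2 and 123 CPM in JAG2KO and 444, 608 and 431 CPM in Scramble other macrophages. The members' value was high in JAG2KO library 2 only. Hdc, the histidine decarboxylase, rests on 12 UMIs, all in JAG2KO library 2, and its fitted value is no bound. Neutrophil markers summed to 307 CPM in the members of that library, and their part in these values was not tested.

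Negative values were found for H2-M2 (-6.48), Olr1 (-2.45), Dcstamp (-2.31), Lpl (-2.19), Fbxo32 (-2.04), Fabp5 (-1.62), Il1b (-1.61) and Lipa (-1.58). In Scramble library 3, 1 cell per gene held 95.6% of the Fabp5 UMIs and 80.0% of the Lipa UMIs of the members. All 19 H2-M2 UMIs and all 10 Olr1 UMIs of the members of that library likewise lay in 1 cell per gene. Olr1 had 2 and 1 UMIs in the members of Scramble libraries 1 and 2, in 1 cell of each. Dcstamp stood at 146 and 139 CPM in JAG2KO members and 257, 201 and 139 CPM in Scramble members, and at 5.24 and 12 CPM in JAG2KO and 1.59, 1.65 and 2.84 CPM in Scramble other macrophages.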

How the results depend on the processing

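The ratio of shares between JAG2KO and Scramble ran from 3.85 to 6.79 over the other cell filters and left-out Scramble libraries, and from 2.75 to 6.16 when 1 JAG2KO library was left out, with no overlap of the groups in any setting. Genes called in the members between JAG2KO and Scramble numbered 0 in the reported fit, 1 without the highest doublet scores, 3 with Acp5 and Ctsk at 0.4%, 5 with no collagen UMI, 2 in DESeq2, 58 with no filter on low counts, 40 with the replicate block, and 0 to 11 with 1 library left out (4 without JAG2KO library 1, 3 without JAG2KO library 2, 11 without Scramble library 1, 0 without Scramble library 2 and 8 without Scramble library 3). Same-numbered libraries had correlations of -0.03 and 0.02 over 2 pairs, so the numbers are not shown to pair the samples, and the block leaves 1 residual degree of freedom. Genes whose difference departed from that in other macrophages numbered 64 in the reported fit, 10 in DESeq2, 24 with sums thinned to the smallest library, 7 with bias-adjusted dispersion and 27 to 82 with 1 library left out (41 without JAG2KO library 1, 27 without JAG2KO library 2). The H2-M2 difference between classes reversed to 6.30 with 5 of 6 rule genes, 6.29 with Acp5 and Ctsk at 0.4% and 5.63 without Scramble library 3 (-7.01 to 5.63 over the left-out libraries), and Fabp5 reversed to 0.0022 and 0.75 under the first 2 of these settings. The cause was not tested. Genes at least 2-fold apart in every library numbered 637, and 1043 with members of fewer than 3 C1q UMIs, where fewer libraries entered. Gene tests with at most 5% mitochondrial UMIs, with at least 20 members per library and with fewer than 3 C1q UMIs were not run, since 1 or 0 Scramble libraries remained.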
